A study of Mus musculus with 12 samples.

Results

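Trace amine-associated receptors (TAARs) are described here in the olfactory epithelium of the mouse. The genes were taken from a list of 10 by name. A gene counted as measured where the array has a probe annotated to that gene alone, as 9 of the 10 do, out of 19937 genes measured in this way. Taar7a, the exception, is annotated on a probe shared with 4 relatives and has no value of its own. The tissue came from male C57BL/6 mice, whose age the labels do not give, held in a cycle of light and dark and then moved to constant darkness. Every 4 h, from circadian time (CT) 12 to CT56, RNA of 4 mice was pooled in equal amounts and put on 1 Affymetrix array, giving 12 pools. The 6 pools at CT12, CT16, CT20, CT36, CT40 and CT44 stand for subjective night, the active phase of a mouse. The 6 at CT24, CT28, CT32, CT48, CT52 and CT56 stand for subjective day. CT36 to CT56 form the second cycle and CT12 to CT32 the first. No genotype or drug differs between pools, and since single mice were not measured, the spread given is that between pools.

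TAARs are a small family of receptors coupled to G proteins that detect amines, compounds given off by urine, decaying tissue and predators. Apart from Taar1, which acts in the brain on monoamine neurons, they are odour receptors. A sensory neuron as a rule uses 1 receptor gene, and TAAR neurons pass their signal through the same G protein, adenylyl cyclase and cyclic nucleotide channel as neurons with odorant receptors. Most of them lie in the dorsal zone of the epithelium, along with the neurons that use class I odorant receptors. Taar3 responds to primary amines such as isoamylamine, Taar4 to phenylethylamine from carnivore urine, and Taar5 to trimethylamine, an odour of male mouse urine. Taar8c responds to N-methylpiperidine and Taar9 to amines that include spermidine. The Taar7 genes are a branch that grew by duplication in rodents.

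In the RefSeq annotation of GRCm38.p6, the 15 protein-coding genes of the family stand side by side on chromosome 10, in the order Taar1, Taar2, Taar3, Taar4, Taar5, Taar6, Taar7a, Taar7b, Taar7d, Taar7e, Taar7f, Taar8a, Taar8b, Taar8c and Taar9. Of these, 13 have a probe of their own. The close likeness of the coding Taar7 genes, each 1077 bases long in the annotation, bears on what a probe can tell apart. Where the probes lie was not examined, so the likeness is only illustrated by the first 50 coding bases. They are shown 5′ to 3′ on the strand of the gene, from RefSeq on GRCm38.p6, with bases that differ from Taar7d in capitals.
Taar7a (chr10:23993432-23993481, minus strand): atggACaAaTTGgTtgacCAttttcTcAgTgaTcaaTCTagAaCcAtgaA
Taar7b (chr10:23999939-23999988, plus strand): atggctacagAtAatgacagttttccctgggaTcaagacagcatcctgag
Taar7d (chr10:24027222-24027271, plus strand): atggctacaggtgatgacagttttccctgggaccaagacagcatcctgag
Taar7e (chr10:24037614-24037663, plus strand): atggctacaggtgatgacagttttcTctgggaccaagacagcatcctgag
Taar7f (chr10:24049510-24049559, plus strand): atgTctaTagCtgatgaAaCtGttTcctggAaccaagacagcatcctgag

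Taar7b shares 47 of the 50 bases with Taar7d, and Taar7e shares 49, while Taar7a shares 30. For comparison, Taar3 and Taar9 share 11 of their first 50 bases, and Taar6 and Taar9 share 32. The probe sequences were not used here, so how far the probes of Taar7b and Taar7d respond to their relatives is uncertain. The windows around the annotated starts of Taar3 and Taar9, the pair that moved most alike below, are printed as the 250 bases upstream in lower case and the first 50 coding bases in capitals. Both windows begin their capitals at the start codon, so the annotated start is that of the coding sequence and may not be where transcription begins.
Taar3 (chr10:23949308-23949607, plus strand): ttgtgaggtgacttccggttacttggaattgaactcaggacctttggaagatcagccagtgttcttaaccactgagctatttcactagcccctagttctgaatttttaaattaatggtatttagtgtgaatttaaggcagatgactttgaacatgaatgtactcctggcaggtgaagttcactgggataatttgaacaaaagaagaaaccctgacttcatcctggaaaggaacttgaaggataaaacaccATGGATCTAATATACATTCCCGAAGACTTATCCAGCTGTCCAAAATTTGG
Taar9 (chr10:24109485-24109784, minus strand): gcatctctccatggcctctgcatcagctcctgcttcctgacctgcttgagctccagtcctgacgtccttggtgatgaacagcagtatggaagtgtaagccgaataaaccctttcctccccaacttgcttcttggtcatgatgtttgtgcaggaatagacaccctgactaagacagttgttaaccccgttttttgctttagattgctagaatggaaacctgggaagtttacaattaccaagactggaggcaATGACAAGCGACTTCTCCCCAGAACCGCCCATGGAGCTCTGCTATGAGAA

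RefSeq windows of this kind matched 8 of the 10 listed genes, and 32851 over all genes. The E-box of clock activators, CACGTG, was in 0 of the 8 and in 7.15% of all windows. The D-box TTATGTAA was in the window of Taar7a, 1 of 8, and in 0.938% of all windows. CCCNNGGG, the core of the Ebf motif of olfactory genes, was in 0 of the 8 against 13.7%, and the homeodomain words TAATTA and TAATGA were in 0 and 3 of the 8 against 5.29% and 9.78%. TAATGA was in the windows of Taar2, Taar7a and Taar7b. In Taar7b it lies in the coding bases and not upstream, and Taar7a has no value of its own. Both strands were searched, and TAATTA and TAATGA share the letters TAAT. All 8 windows are set at the start codon, as those of Taar3 and Taar9 are, and the shares over all genes were not matched for base composition. A match is a description of these letters only.

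The labelled tissue was checked on its neurons. Omp, the marker of mature olfactory sensory neurons, read between 12.70 and 13.08 in all 12 pools on the intensity scale, which was taken to be log2 from its range, and the channel gene Cnga2 between 12.32 and 12.84. Other parts of the tissue were less even. The mean profile of 16 nasal gland genes, each centred on its own mean, was 1.2 at CT44 and ran from -0.7 to 0.81 in the other pools. The array medians lay between 7.81 and 7.92, and correlations between pools over all probes between 0.964 and 0.995. A probe's brightness also depends on its sequence, so the levels of different receptors are not compared. The Taar8c probe was dim, with a mean of 4.49 that lies at percentile 3.8 of all probe means, and whether it stood above background is not given in the values. The other 8 probes had means between percentiles 53.0 and 93.1. The Taar1 probe, for the one family member not known as an odour receptor, lay at percentile 9.3.

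The receptors differed in how much they varied. Taar9 had an SD of 0.26 over the 12 pools and Taar3 one of 0.22, larger than 95.9% and 90.4% of all genes. Taar5 and Taar7b had SDs of 0.08 each, larger than 9.8% and 7.2% of genes. The other 5 lay between 0.10 and 0.19. The median SD of all genes was 0.13.

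**Figure D1:**
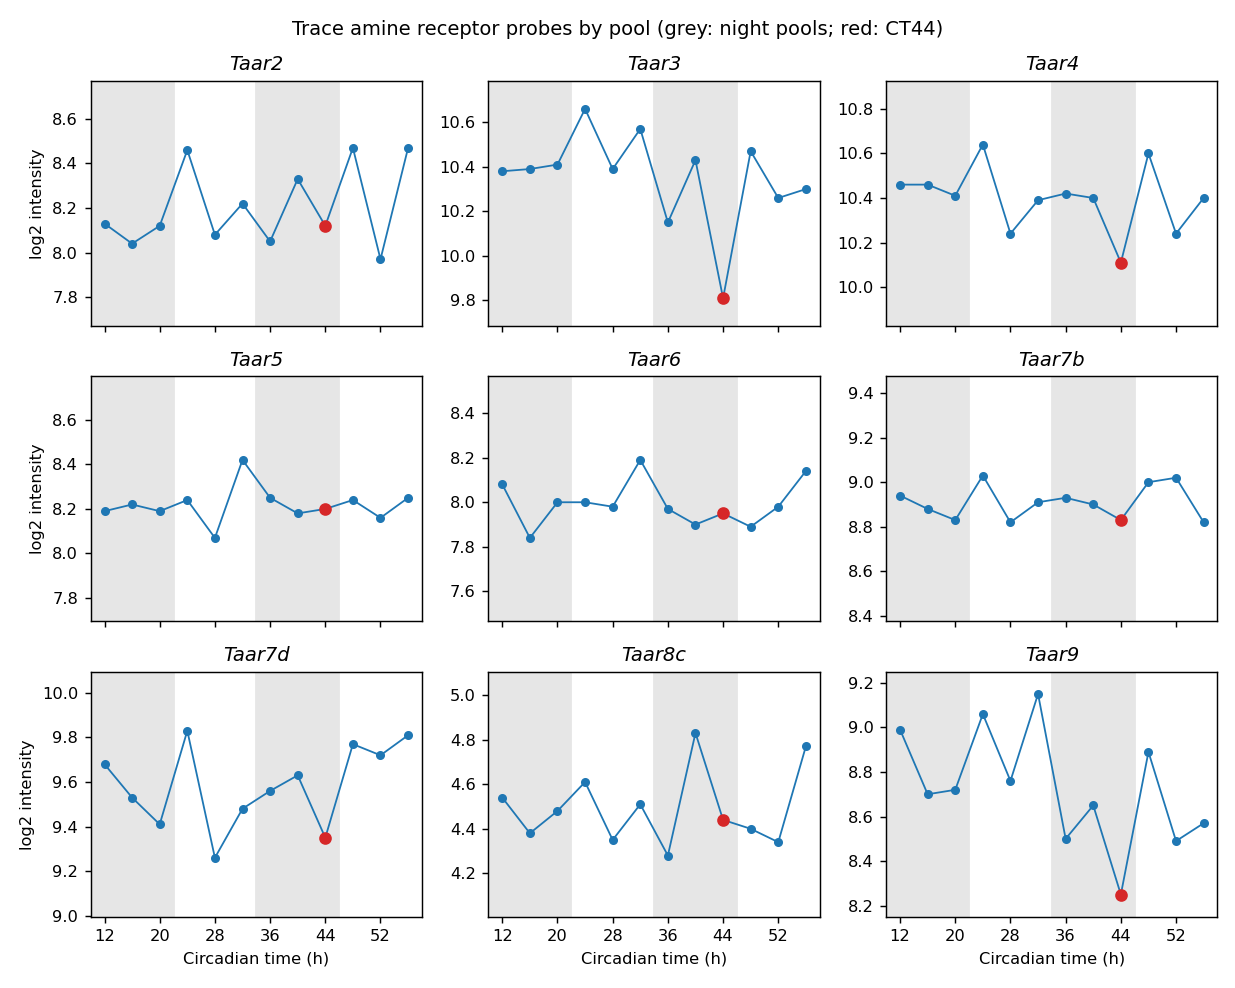
Log2 intensity (y axis, each panel spanning 1.1 log2 units) of the 9 receptors against circadian time in h (x axis), 1 point per pool of 4 mice, night pools on grey and CT44 in red. Taar3, Taar4 and Taar9 have their lowest value at CT44, while Taar5 and Taar7b stay within 0.35 and 0.21 log2 units over all pools.

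Whether these receptors follow the time of day was asked first, with a cosine of 24 h fitted to the 12 pools (limma, F test, p adjusted over all genes). None of the 9 passed an adjusted p of 0.05, and 0 had an unadjusted p under 0.05. Over all genes 0.0251% passed and 3.54% had an unadjusted p under 0.05, so a count of 0 among 9 receptors does not set them apart. The fitted amplitude, the distance from mean to peak, was between 0.02 and 0.10 on the log2 scale. The lowest, that of Taar4, rests on CT44, since it was 0.0839 without that pool and 0.0976 without CT44 and CT56. Taar6 had the smallest p, with an amplitude of 0.096 ± 0.041 (SE, 12 pools) and a fitted peak at CT 7.7 (limma, adjusted p = 0.996). It read 8.19 at CT32 and 8.14 at CT56, which lie 24 h apart, against 7.84 to 8.08 in the other 10 pools.

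A cosine describes a slow rise and fall, and a few receptors instead read high at 1 time of day, CT24 and CT48, the start of the subjective day. This was noticed in the values and has no independent support. Taar4, the phenylethylamine receptor, read 10.64 and 10.60 at CT24 and CT48, against 10.11 to 10.46 in the other 10 pools. Both values lay above all the others, as they did in 2.37% of all genes. Taar2 read 8.46 and 8.47 at these times, against a median of 8.12 in the other pools, and only CT56 reached as high with 8.47. Taar7d read 9.83 and 9.77, with CT56 at 9.81 between them. The mean of the 2 pools was above that of the other 10 in 8 of 9 receptors, by a median of 0.26, against 44.2% of all genes and a median of -0.02. With quantile normalization it was 7 of 9, with a median of 0.19, against 39.5% of all genes and a median of -0.03. With median centring it was 8 of 9, with a median of 0.30, against 54.9% of all genes and a median of 0.02. In a fit with phase as a factor, added after the values were seen, Taar2 and Taar4 had unadjusted p of 0.0192 and 0.0303 (limma, adjusted p = 0.243 and 0.26). Of all genes, 16.9% had an unadjusted p under 0.05 in that fit and 0.0853% passed, so neither receptor was called. Among neuron genes, 12 of 13 mature sensory neuron genes also read higher at CT24 and CT48, by a median of 0.05, but only 8 of 13 did with quantile normalization. In bulk tissue fewer cells of a type and less RNA per cell cannot be told apart.

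**Figure D2:**
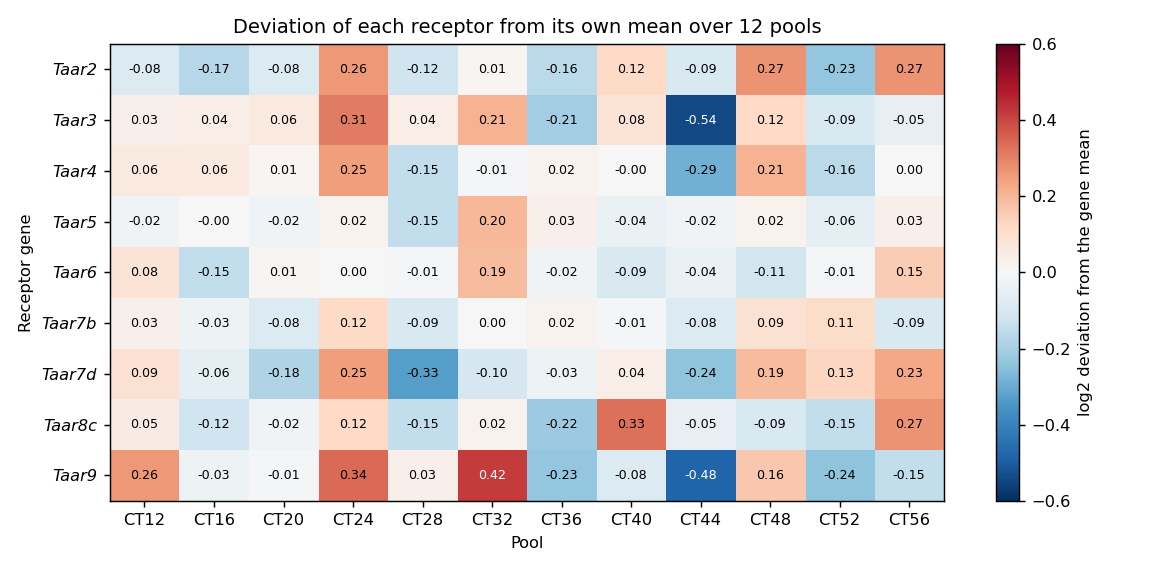
Deviation of each receptor from its own mean over the 12 pools (colour and printed value, log2 units), receptors down the page and pools along it in order of time. The CT24 and CT48 columns are both above the mean for Taar2, Taar3, Taar4, Taar5, Taar7b, Taar7d and Taar9, and the deepest blue of the CT44 column belongs to Taar3 (-0.54), Taar9 (-0.48) and Taar4 (-0.29).

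The next comparison set the active against the resting phase. Taar9 averaged 8.63 ± 0.25 at night and 8.82 ± 0.26 in the day (SD, 6 pools each), a difference of -0.19 with a 95% interval of -0.45 to 0.08 (limma, adjusted p = 0.534). Taar3 averaged 10.26 ± 0.25 at night and 10.44 ± 0.15 in the day, a difference of -0.18 (interval -0.40 to 0.04, limma, adjusted p = 0.509). Taar2 averaged 8.13 ± 0.11 at night and 8.28 ± 0.22 in the day, a difference of -0.15 (interval -0.34 to 0.04, limma, adjusted p = 0.517). The night and day pools of these 3 receptors overlap, and without CT44 the difference was -0.0895 for Taar3 and -0.11 for Taar9. Without CT32 it was -0.12 for Taar9. All 9 receptors had the lower mean at night, against 51.5% of all genes, with a median difference of -0.07, but with quantile normalization Taar4 and Taar8c turned to the other sign. The day mean includes CT24 and CT48, so this count is not separate from the high readings there. In the chromosome 7 block of odorant receptors, described below, 104 of 116 genes were also lower at night (median -0.09). None of the 9 receptors passed, as in 0% of all genes, and 0 of the 9 had an unadjusted p under 0.05, against 9.86% of all genes (4.17% higher and 5.69% lower at night). With array weights 5 of the 9 did, against 23.9% of all genes in that fit, and 0 passed. The other TAAR genes with probes, Taar1, Taar7e, Taar7f and Taar8b, differed by 0.04, -0.03, -0.09 and -0.10 (limma, adjusted p between 0.6 and 0.9).

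**Figure D3:**
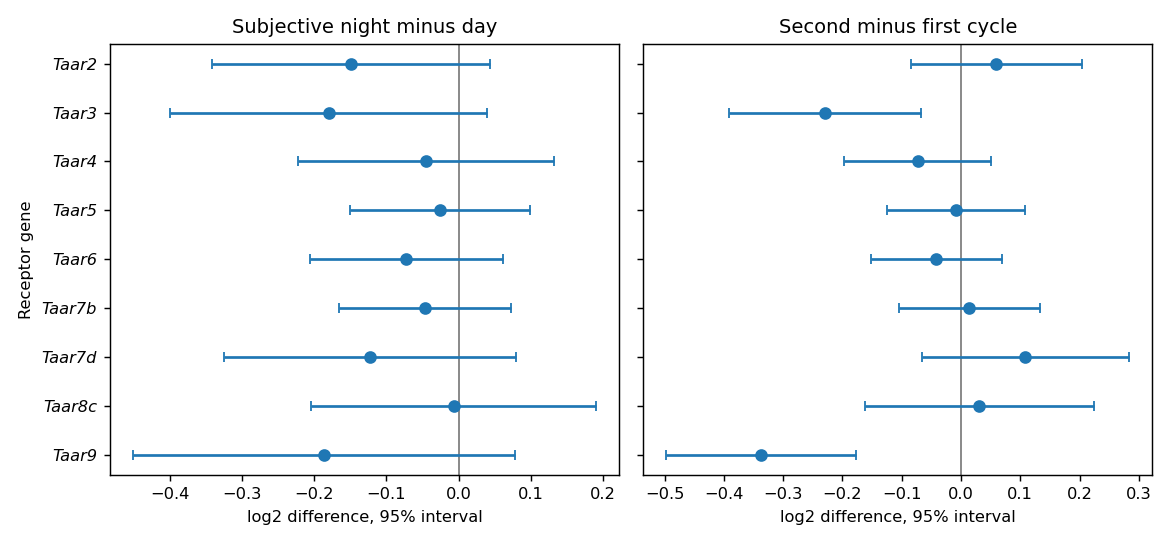
Log2 differences with 95% intervals from the limma fits (x axes) for the 9 receptors (y axis), subjective night minus day on the left and second minus first cycle on the right. All intervals of the night and day contrast hold 0, and those of Taar3 and Taar9 lie below 0 in the cycle contrast before any adjustment for the number of genes.

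Each pool of the second cycle was next paired with the pool taken 24 h earlier. Taar9 stood out among the receptors. It read 8.50, 8.65, 8.25, 8.89, 8.49 and 8.57 from CT36 to CT56, against 8.99, 8.70, 8.72, 9.06, 8.76 and 9.15 from CT12 to CT32. All 6 were below their partner, by 0.05 to 0.57, which holds for 6.1% of all genes. The difference was -0.34 ± 0.07 (SE, 6 pairs of pools, unadjusted p = 0.000684 in limma), rank 36 of 19937 genes by p, and it did not pass over all genes (limma, adjusted p = 0.304). Taar3 read 10.15, 10.43, 9.81, 10.47, 10.26 and 10.30 in the second cycle, against 10.38, 10.39, 10.41, 10.66, 10.39 and 10.57 in the first. It was lower in 5 of 6 pairs, the exception being CT40, and differed by -0.23 ± 0.07 (limma, adjusted p = 0.304). Without CT44, which takes its partner CT20 out of the comparison too, the difference was -0.16 for Taar3 and -0.31 for Taar9. Without CT44 and CT56 it was -0.13 for Taar3 and -0.24 for Taar9 (limma, adjusted p = 0.9994 for both).

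The other receptors differed less between the cycles. Taar7d and Taar2 read higher in the second cycle, by 0.11 ± 0.08 and 0.06 ± 0.07 (limma, adjusted p = 0.587 and 0.736). Neither passed, and leaving out single pools moved these values between 0.0377 and 0.155 for Taar7d, lowest without CT28 or CT52, and between 0.0135 and 0.0942 for Taar2, lowest without CT16 or CT40. The median over the 9 was -0.01, against -0.03 over all genes. Of the 9, 5 were lower, a share near the 61.7% of all genes that were. Of the 9, 2 had an unadjusted p under 0.05, both lower, against 13.2% of all genes (8.94% lower and 4.22% higher), and 0 passed, as in 0% of all genes. The mature neuron genes read lower in 12 of 13 cases (median -0.18) and the genes of signal transduction, which TAAR neurons share, in 15 of 17 (median -0.08), beside the same 61.7%. Their smallest p belonged to Cngb1, a channel subunit (limma, adjusted p = 0.304). The part of the neuron genes in the Taar9 and Taar3 values was not tested, and time in darkness cannot be told apart from the order in which arrays may have been run.

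The pool at CT44 is a single sample, and it was already known to be low when these receptors were picked for description. Its values are thus a description with no test, and the shares of all genes beside them are no independent support. The size of its low reading differed among the receptors. Taar3 read 9.81 at CT44, against 10.15 to 10.66 in the other 11 pools, a difference of -0.59 from their mean or 0.66 times the level. Only 2 of 19937 genes had a lower difference in that pool. Taar9 read 8.25, against 8.49 to 9.15 elsewhere, a difference of -0.52. Taar4 read 10.11, against 10.24 to 10.64 elsewhere, a difference of -0.31. In these 3 receptors CT44 was the lowest of the 12 pools, as it was in 6.54% of all genes, and all 3 were over 0.3 below the other pools, as were 0.898% of all genes.

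Taar7d came next, at 9.35 against a mean of 9.61 elsewhere, but it read lower still at CT28, with 9.26. Taar2, Taar5, Taar6, Taar7b and Taar8c were below the mean of the other pools by 0.02 to 0.10 and stood inside their range. All 9 were thus below the others' mean, against 57.5% of all genes, with a median of -0.10 against -0.02. Set against CT20 alone, the pool of the same phase, Taar2, Taar5 and Taar7b were level. Taar6, Taar7d and Taar8c differed by only -0.05, -0.06 and -0.04, and Taar3, Taar4 and Taar9 were lower by 0.60, 0.30 and 0.47 log2 units. Beyond the 9, the Taar7f probe read 7.75 at CT44, against 8.03 to 8.46 elsewhere, while Taar1, Taar7e and Taar8b differed by -0.10, -0.24 and -0.21.

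Other genes moved in the CT44 pool as well, and their part in the receptor values was not tested. The 4 listed markers of the dorsal zone were all below their mean in the other pools (median -0.16). Nqo1, a quinone reductase whose neurons mark that zone, read 12.38, against 12.51 to 12.79 elsewhere. The axon guidance receptor Robo2 read 10.36, against 10.40 to 10.75. Acsm4 read 13.18 and Msx1 7.90, inside their ranges of 13.01 to 13.34 and 7.61 to 8.26. The 5 measured ventral markers were all above their mean in the other pools (median 0.27). Ncam2, an adhesion molecule of ventral axons, read 8.60, against 7.86 to 8.68, and Nrp2, a semaphorin receptor, read 8.81, against 8.35 to 8.76. These signs were the same with quantile normalization and with median centring. Over the 12 pools, the mean profile of the dorsal markers had a correlation of 0.16 with that of the 9 receptors, and of -0.23 without CT44. For the ventral markers it was 0.45 without CT44. Still without CT44, quantile normalization gave -0.16 for the dorsal and 0.16 for the ventral markers, and median centring 0.07 and 0.62. Of the dorsal markers taken singly, Msx1 had -0.75 without CT44, against 0.54 for Nqo1, 0.38 for Robo2 and 0.04 for Acsm4. At CT44, mature neuron genes were lower in 11 of 13 cases (median -0.16), with Omp at 12.70, against 12.71 to 13.08. Nasal gland genes were higher in 13 of 16 cases (median 0.87) and connective matrix genes in 11 of 11 (median 0.33).

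**Figure D4:**
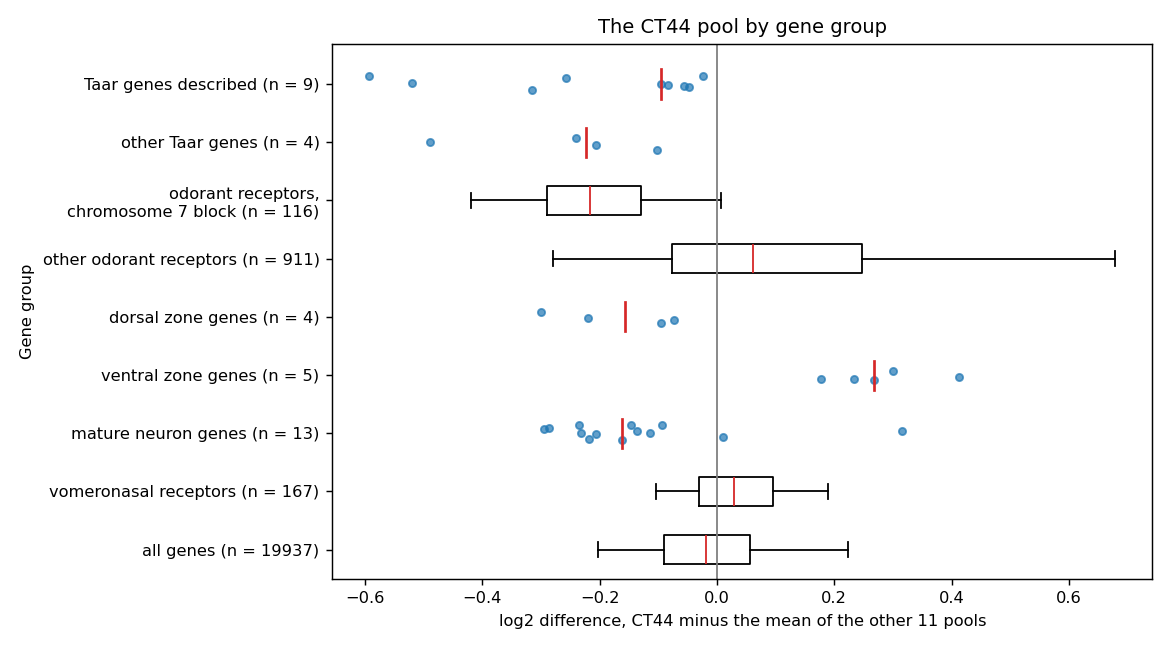
Log2 difference of the CT44 pool from the mean of the other 11 pools (x axis) by gene group (y axis). Points are genes, red lines medians, and boxes of large groups show quartiles with whiskers at the 5th and 95th percentiles. The medians of the receptors, of the odorant receptors of the chromosome 7 block and of the dorsal genes lie to the left of 0, and that of the ventral genes to the right.

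Odorant receptors give the nearest comparison. The receptor genes beside the beta globin genes on chromosome 7, known as the class I receptors, were separated from all others by RefSeq gene order, a split made after the values were seen. At CT44 this block read lower in 109 of 116 genes, with a median of -0.22, while of the other 911 odorant receptors 343 read lower, with a median of 0.06. CT44 was the lowest pool for 43.1% of the block and 9.55% of the others. At CT24 and CT48, too, 100 of the 116 read higher than elsewhere, against 317 of the 911. Over the 12 pools, the mean profile of the 9 receptors had a correlation of 0.92 with that of the block, and of 0.88 without CT44. With the other odorant receptors it was -0.04, and 0.26 without CT44, so its sign rests on that pool. After median centring it was 0.24, and 0.51 without CT44. With the 167 vomeronasal receptors it was -0.83, and -0.90 without CT44. Without CT44, quantile normalization gave 0.76 for the block and -0.80 for the vomeronasal receptors, and median centring 0.93 and -0.78. With the mean of all genes the correlation over 12 pools was -0.29, and 0.55 after median centring. Such values thus depend on how the arrays are scaled. The points of such a profile share their pool and its array, so the values are descriptions.

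**Figure D5:**
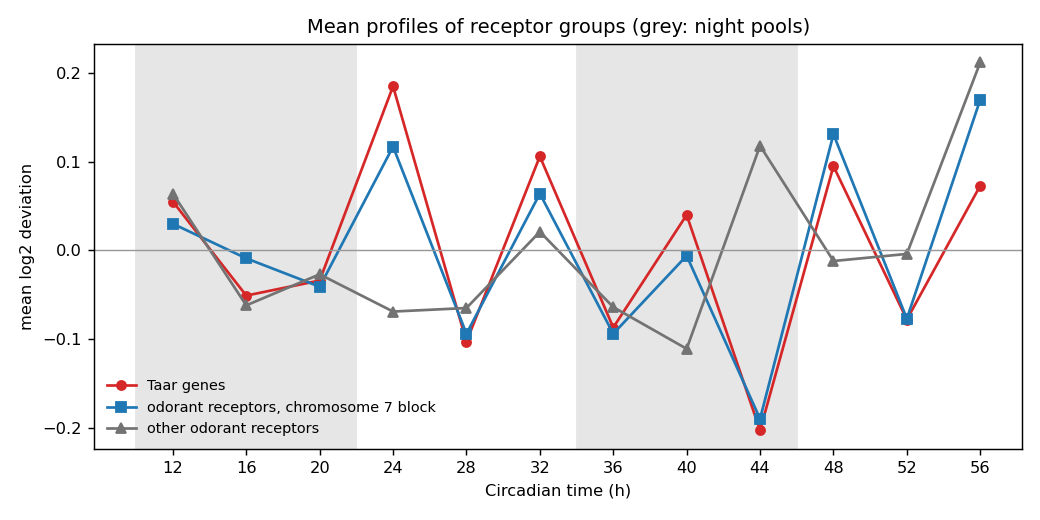
Mean log2 deviation from each gene's own mean (y axis) by circadian time in h (x axis) for the 9 TAAR genes, the 116 odorant receptors of the chromosome 7 block and the 911 other odorant receptors, night pools on grey. At CT44 the first 2 groups read -0.20 and -0.19 and the third 0.12.

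By single genes, the 5 outside the family most like the mean of the 9 receptors over 12 pools were Bod1l (r = 0.916, rho = 0.895), Olfr691 of the chromosome 7 block (r = 0.916, rho = 0.958), Olfr432 (r = 0.898), Olfr1377 (r = 0.897) and Rsph9 (r = 0.893). Without CT44, over 11 pools, they were 1700086L19Rik (r = 0.963), Armc8 (r = 0.962), Rhot1 (r = 0.959), Eif2s3x (r = 0.958) and Pa2g4 (r = 0.951). The lists share 0 genes, so which single genes come first rests on the CT44 pool. Of the 100 most alike genes over 12 pools, 34 were odorant receptors, which make up 5.15% of all genes. Of these 34, 14 belonged to the block, which holds 11.3% of the odorant receptors. That ranking includes CT44, and no such count was made without it.

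Within the family, 33 of the 36 pairs of measured receptors had a positive correlation over the 12 pools, with a median of 0.35 and a range of -0.16 to 0.88. Without CT44 the median was 0.32. Taar3 and Taar9 formed the closest pair (r = 0.88, rho = 0.83, and r = 0.85 without CT44), although they stand 12 places apart among the coding genes of the cluster. Their values at CT24, CT32 and CT44 move together, both high at the first 2 and lowest at the third. Taar7b and Taar7d, with nearly the same coding start shown above, had r = 0.66. The lowest value was that of Taar6 with its measured neighbour Taar7b, r = -0.16. The 8 pairs that follow each other in the order of the measured listed receptors had a median of 0.42, and the other 28 one of 0.31. Not all of these 8 are adjacent in the cluster. Taar7d and Taar8c stand 5 places apart, with Taar7e, Taar7f, Taar8a and Taar8b between them, and Taar6 and Taar7b stand 2 apart. Such values over 12 shared pools are descriptions, since both members of a pair share their pools and arrays.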

How the data were processed

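Per the labels' protocols, cDNA made with random primers was fragmented and biotin-labelled for Affymetrix arrays. The submitters' processing notes name affy, with background correction and normalization not given in the sources used here. No source states the scale: the values the authors deposited, 3.48 to 14.47, were taken to be log2 intensities because their maximum exceeds 11.09, the natural log of what a 16-bit scanner can record, and stays under 16.0, its log2. No further normalization was applied. Arrays give no read depth, and their number limits the precision.

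Of 34760 probes, 21640 carry 1 gene symbol, 1321 several, and 11799 have no entry in the platform annotation. By Entrez ID, 21553 of the 1-symbol probes matched RefSeq and 0 symbols changed. A gene was represented by its brightest probe, and each TAAR gene has 1. Fits used limma 3.58.1 in R 4.3.3 over all 19937 genes with Benjamini-Hochberg adjustment, namely a 24 h cosine and sine, night against day, and cycle with phase as a factor. The fits were tested on simulated data. Sequences come from RefSeq on GRCm38.p6. Other steps used Python 3.11.15, pandas 2.3.3, numpy 2.4.6, scipy 1.17.1, biopython 1.88 and matplotlib 3.10.9.

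The genes and lists were chosen with earlier results of these data known. Named are the 9 measured receptors, the other TAAR genes with a probe of their own, the 5 genes most like the receptors' mean with and without CT44, and the defining markers of lists. Alternatives were quantile normalization, median centring, filters on dim genes at the 25th or 50th percentile, the mean of a gene's probes, array weights, a trended robust prior, periods of 22 and 26 h, a cycle block, a 24 h cosine in place of phase, leaving out each pool, leaving out CT44 and CT56, and, for CT44, the other night pools or CT20 alone as the comparison. Phase as a factor and the split of the odorant receptors were added after the values were seen.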

Additional observations from a re-analysis of the deposited data

Results flagged for a closer look

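Within the 6 pools of night, day, second cycle and first cycle, each receptor and the mean of the 9 were searched for 1 pool distant from its neighbours. Of 40 sets searched, 2 held such a pool, and about 2.0 are expected by chance (1 in 20). Taar4 read 10.11 at CT44, and its gap to the next night pool was 0.819 of the range of the night pools, above Dixon's 95% value of 0.625 for 6 samples. The CT44 pool was known to be low before this search, so that flag is no independent support. Taar2 read 8.33 at CT40, the highest of the night pools, with a gap of 0.694 of their range, against 8.13 for the next pool, CT12.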

How the results depend on the processing

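The count of called receptors was 0 of those tested under all alternatives run for the rhythm, the night and day and the cycle comparison. The filters at the 25th and 50th percentile left 8 and 7 receptors to test. The lowest adjusted p was 0.0572, for Taar9 between cycles with array weights (limma). In the alternatives that tested all genes, unadjusted p under 0.05 were found for 0 receptors in the rhythm fits, against 2.47% to 7.14% of all genes, and for 2 with phase as a factor, against 14.1% to 16.9%. They were found for 0 to 5 receptors in the night and day fits, against 4.45% to 23.9% of all genes, and for 1 to 3 in the cycle fits, against 2.85% to 21.2%. Over all genes, calls were 17 with phase as a factor, 15 with it and without CT44, 0 with a period of 22 h, 2 with 26 h or without CT44 and CT56, and 3 to 5 without single pools, against 5 in the 24 h fit, and 18 without CT12 or CT36 and 17 with array weights against 0 in the cycle fit. Differences near 0 changed sign. With quantile normalization the night minus day values were 0.0070 for Taar4 and 0.0201 for Taar8c, and the cycle value of Taar8c was -0.0294. Without CT44 and CT56 the night values were 0.00459 for Taar4 and 0.0564 for Taar8c, and the cycle values 0.0287 for Taar5 and -0.00751 for Taar8c. Leaving out single pools gave night values of -0.0816 to 0.00814 for Taar4, -0.0588 to 0.0120 for Taar5 and -0.0747 to 0.0468 for Taar8c. It gave cycle values of -0.0289 to 0.0235 for Taar5, -0.0222 to 0.0352 for Taar7b and -0.0529 to 0.0899 for Taar8c. The cause of these changes was not tested. The cycles were compared by phase, and the night and day fit with cycle as a block called 0 receptors. By replicate number, no paired analysis was possible because the labels number no pools, and the order of accessions pairs nothing. Against CT20 alone, CT44 differed by 0.00272 for Taar5 and 0.000699 for Taar7b. The median CT44 difference lay between -0.12 and -0.072 without single pools, and the median correlation of pairs between 0.251 and 0.404. The dim Taar8c probe limits what can be said of that gene.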

Other observations

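Among the probes annotated to several TAAR genes, the one shared by Taar7a, Taar7b, Taar7d, Taar7e and Taar7f read 9.34 at CT44, its lowest value, and 9.44 to 9.77 in the other pools. It stood 0.28 log2 below their mean (difference -0.28). The probe shared by Taar8a, Taar8b and Taar8c read 7.54 to 7.84 over the 12 pools, with a difference of -0.02 at CT44.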
